A study of Mus musculus with 2 samples.

Results

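Cxcl9, Cxcl10, Cxcl16, Cxcr3 and Cxcr6 were described in CD45+ cells sorted from mouse melanoma tumors. They are a set of chemokine ligands and the receptors that T and NK cells carry for them. The 5 genes were taken by their symbols from the 31253 genes of the count tables, and each was found once. Their unique molecular identifiers (UMIs, each marking 1 captured RNA molecule) were read in barcodes with at least 200 detected genes and under 10% mitochondrial UMIs, which were 5576 barcodes in the shSdc1 library and 5225 in the shRFP library. In both groups, wild-type mice had been vaccinated subcutaneously with irradiated B16 melanoma cells that secrete GM-CSF. After 12 days they received B16 cells in the other flank, which carried a short hairpin RNA against Sdc1 in the shSdc1 group or a hairpin against red fluorescent protein in the shRFP group. After a further 16 days the 6 tumors of a group were pooled, and live CD45+ cells were sorted for droplet sequencing with 10x Genomics 3′ chemistry. Each group is therefore 1 library of pooled animals, with no replicate. A genotype label calls the shSdc1 sample an Sdc1 knockout, while the title and the growth protocol give a hairpin in the injected cells.

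CXCL9 and CXCL10 are secreted chemokines whose genes are induced by interferon gamma, and CXCL10 also by type I interferon and NF-kappa B. Both bind CXCR3, a receptor of activated CD8 and type 1 helper T cells and of NK cells. CXCL16 is made as a transmembrane protein that can hold cells expressing its receptor CXCR6, and the protease ADAM10 sheds it as a soluble chemokine. CXCR6 is known from tissue-resident and effector T cells, and in tumors CXCL9 and CXCL16 are known products of macrophages and dendritic cells (DC).

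Cxcl9 lies on chromosome 5 at 92321347 to 92328079 of GRCm38, the same assembly as mm10, on the minus strand in GENCODE M21. Cxcl10 lies beside it at 92346638 to 92348889 on the same strand, with 18558 bases between the 2 genes. No link to the levels below was tested for the promoters of these 2 neighbours, which are shown here. They run from 250 bases before to 50 bases after the RefSeq start, on GRCm38.p6, at chr5:92328030-92328329 for Cxcl9 and chr5:92348840-92349139 for Cxcl10, both read 5′ to 3′ on the minus strand. Capitals mark matches to 3 sets of letters searched on both strands: TTCNNNGAA (gamma-activated site), GAAA followed after any 2 bases by GAAA (interferon-stimulated element) and GGGA followed after any 4 bases by CC (kappa B).
Cxcl9: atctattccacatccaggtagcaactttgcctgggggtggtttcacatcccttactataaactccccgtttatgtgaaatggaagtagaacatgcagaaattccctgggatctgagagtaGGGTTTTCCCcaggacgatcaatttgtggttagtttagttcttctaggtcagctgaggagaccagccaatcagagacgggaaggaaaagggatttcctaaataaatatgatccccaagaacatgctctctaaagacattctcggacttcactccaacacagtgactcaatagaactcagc
Cxcl10: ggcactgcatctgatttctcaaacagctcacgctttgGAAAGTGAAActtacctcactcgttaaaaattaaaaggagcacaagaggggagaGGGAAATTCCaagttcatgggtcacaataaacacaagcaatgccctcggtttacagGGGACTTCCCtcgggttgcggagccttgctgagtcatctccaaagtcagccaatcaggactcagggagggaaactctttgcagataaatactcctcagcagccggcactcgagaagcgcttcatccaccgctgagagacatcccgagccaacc
The Cxcl10 window held the interferon-stimulated letters at -213 and kappa B letters at -159 and -103. The Cxcl9 window held kappa B letters on the opposite strand at -130. Among 32851 promoters of the same length, the gamma-activated site letters were in 8.30%, the interferon-stimulated letters in 3.44% and the kappa B letters in 20.7%. The windows of Cxcr3 and Cxcr6 held none of the 3, and 4 of the 5 genes had an entry in the RefSeq table, Cxcl16 being the one without. Cxcl16 lies on the minus strand of chromosome 11 (70453983 to 70459984), Cxcr3 on the minus strand of chromosome X (101731535 to 101734269) and Cxcr6 on the plus strand of chromosome 9 (123806475 to 123811760). Genes on the opposite strand overlap Cxcl10 (Art3), Cxcl16 (Zmynd15) and Cxcr6 (Fyco1), and the sources used here do not say whether reads were counted by strand. Art3 had 0 UMIs in monocyte/macrophage-like cells of both libraries. Zmynd15 had 90 UMIs in shSdc1 and 54 in shRFP monocyte/macrophage-like cells, and Fyco1 had 19 in shSdc1 and 14 in shRFP T-like cells.

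After removal of likely doublets, 5313 shSdc1 cells with 4014132 UMIs and 4983 shRFP cells with 3850273 UMIs remained. The median was 593 UMIs per cell in shSdc1 and 650 in shRFP, so single cells were shallow. Ptprc, which encodes CD45, had 571 CPM (UMIs per 1000000 UMIs of the cells named) in shSdc1 and 454 CPM in shRFP cells. Sdc1 had 18.9 CPM in shSdc1 and 26.5 CPM in shRFP cells, which are host cells and do not check the hairpin in the tumor cells. The libraries shared 20 cell barcodes, 17 of them among kept cells. Clusters were named from marker genes as monocyte/macrophage-like (46.0% of shSdc1 and 58.6% of shRFP cells), T-like (32.9% and 21.6%), NK-like (4.86% and 1.63%), conventional DC 1-like (3.31% and 2.99%), conventional DC 2-like (3.86% and 5.92%), migratory DC-like (2.86% and 2.75%) and B and plasma-like (1.52% and 2.31%). Cluster 9, led by Retnla, Lyz1 and Ear2, stayed unnamed (3.56% and 3.09%). The 5 genes were left out of the clustering. Intervals below are 95% intervals for counting error only. They do not cover the variation between animals, so that no difference between the libraries was tested.

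The 3 ligands came mainly from monocyte/macrophage-like cells and the 2 receptors mainly from T-like cells, in both libraries. Monocyte/macrophage-like cells held 83.9% of Cxcl9 UMIs in shSdc1 and 75.8% in shRFP, 83.8% of Cxcl10 UMIs in shSdc1 and 87.5% in shRFP, and 82.3% of Cxcl16 UMIs in shSdc1 and 72.4% in shRFP. Conventional and migratory DC-like cells together held 12.7% of Cxcl9 UMIs in shSdc1 and 18.5% in shRFP, and 14.8% of Cxcl16 UMIs in shSdc1 and 23.6% in shRFP. Their part of the Cxcl10 UMIs was smaller, at 6.68% in shSdc1 and 6.81% in shRFP. T-like and NK-like cells together held 90.0% of Cxcr3 UMIs in shSdc1 and 79.5% in shRFP, and 97.3% of Cxcr6 UMIs in shSdc1 and 94.2% in shRFP. Conventional DC 1-like cells were the largest other holder of Cxcr3, with 4.98% of its UMIs in shSdc1 and 12.3% in shRFP.

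**Figure D1:**
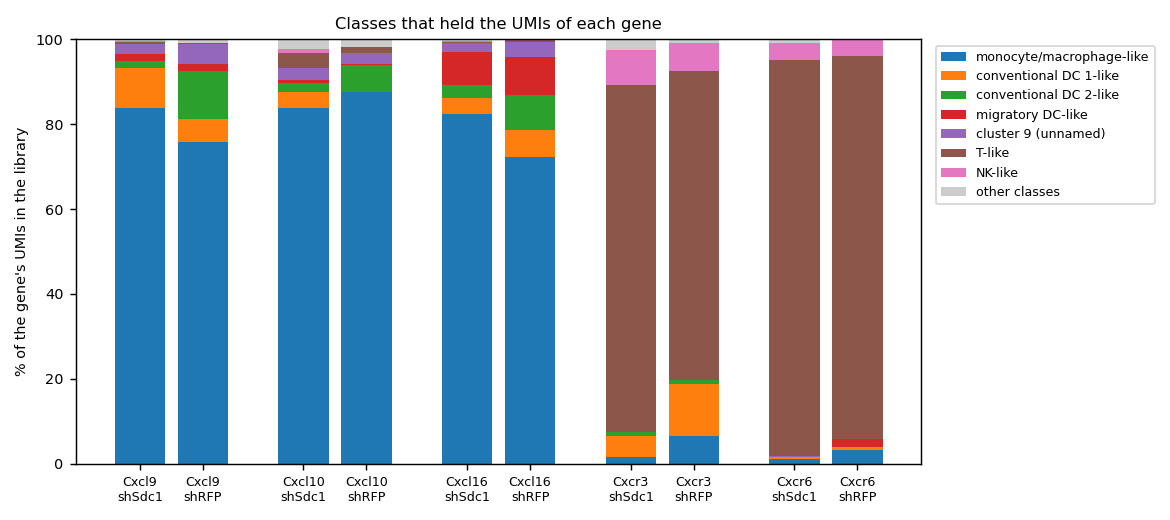
Share of each gene's UMIs (vertical axis, percent of the gene's UMIs in a library) held by each class, as stacked bars for shSdc1 (left of each pair) and shRFP (right). Monocyte/macrophage-like cells held 72.4% to 87.5% of the UMIs of the 3 ligands, and T-like cells 73.0% to 93.2% of those of the 2 receptors.

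Cxcl9 was higher in the monocyte/macrophage-like and conventional DC 1-like cells of the shSdc1 library. It had 355 CPM [329 to 382] in shSdc1 and 125 CPM [111 to 140] in shRFP monocyte/macrophage-like cells, from 701 and 304 UMIs. The ratio of shSdc1 over shRFP was 2.84 [2.48 to 3.26]. At least 1 Cxcl9 UMI was found in 264 of 2442 shSdc1 cells (10.8%) and 127 of 2920 shRFP cells (4.35%) of this class, at median depths of 660 and 707 UMIs. With each cell thinned to 300 UMIs, which left out 155 shSdc1 and 91 shRFP cells, the shares were 6.52% in shSdc1 and 2.37% in shRFP. T-like cells, which are not known as a source of Cxcl9, gave a background of 0.229% in shSdc1 and 0.0931% in shRFP, at median depths of 436.5 and 393.5 UMIs. Exactly 1 UMI was found in 132 of 264 positive cells in shSdc1 and in 59 of 127 in shRFP, and the highest cell had 26 UMIs in shSdc1 and 17 in shRFP. The 10 cells with most Cxcl9 held 21.1% of the class's Cxcl9 UMIs in shSdc1 and 27.3% in shRFP. Both the share of positive cells and the UMIs per positive cell, 2.66 in shSdc1 and 2.39 in shRFP, were therefore higher in shSdc1, the share by more.

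In conventional DC 1-like cells, the DC that present antigen to CD8 T cells, Cxcl9 had 348 CPM [275 to 434] in shSdc1 and 135 CPM [84.6 to 204] in shRFP, a ratio of 2.57 [1.59 to 4.34]. In shSdc1 this level lay within the interval of the monocyte/macrophage-like level, and in shRFP the levels of these classes also had overlapping intervals. Conventional DC 2-like cells had 69.5 CPM in shSdc1 and 148 CPM in shRFP, a ratio of 0.469 [0.243 to 0.857] on 15 and 45 UMIs. That direction turned over with the outline of the class: the ratio was 1.10 without doublet removal and 1.13 with under 5% mitochondrial UMIs. Migratory DC-like cells had 117 CPM in shSdc1 and 74.3 CPM in shRFP, and cluster 9 had 121 CPM in shSdc1 and 117 CPM in shRFP. The intervals of both ratios, 1.57 [0.583 to 4.66] and 1.03 [0.522 to 2.04], included 1. NK-like cells had 2 UMIs in shSdc1 and 0 UMIs in shRFP, where a count of 0 allows up to 74.3 CPM.

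Over the monocyte/macrophage-like class as a whole, Cxcl10 did not follow Cxcl9. In monocyte/macrophage-like cells it had 470 CPM [440 to 501] in shSdc1 and 539 CPM [510 to 569] in shRFP, from 929 and 1310 UMIs, and the ratio was 0.872 [0.801 to 0.949]. It was found in 288 shSdc1 cells (11.8%) and 478 shRFP cells (16.4%) of the class, and in 7.48% of shSdc1 and 9.65% of shRFP cells at 300 UMIs. Fewer shSdc1 cells were thus positive, with more UMIs in each, 3.23 in shSdc1 and 2.74 in shRFP. The highest cell had 26 UMIs in shSdc1 and 34 in shRFP. For each Cxcl9 UMI this class had 1.33 Cxcl10 UMIs in shSdc1 and 4.31 in shRFP. With the clusters of the class weighted alike in both libraries, the Cxcl10 ratio was 0.924. For cells of at least 500 genes it was 0.943 [0.841 to 1.06], an interval that included 1.

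Dendritic cells differed in Cxcl10, on few UMIs. Conventional DC 1-like cells had 42 UMIs (187 CPM) in shSdc1 and 3 UMIs (18.4 CPM) in shRFP, a ratio of 10.2 [3.25 to 51.3], and a single cell held 33.3% of the shSdc1 UMIs. With that cell and the highest shRFP cell left out, 28 UMIs remained in shSdc1 and 1 in shRFP. At Leiden resolution 0.5, where the class took in 573 shSdc1 and 670 shRFP cells, the ratio was 0.678. Conventional DC 2-like cells had 22 UMIs (102 CPM) in shSdc1 and 94 UMIs (310 CPM) in shRFP, a ratio of 0.329 [0.197 to 0.528], but 2.70 with under 5% mitochondrial UMIs and 1.35 with the 5 genes kept among the clustering genes. The level in this class therefore turned on which cells the clusters assigned to it. Migratory DC-like cells had 10 UMIs in shSdc1 and 5 in shRFP, and cluster 9 had 181 CPM in shSdc1 and 222 CPM in shRFP.

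T-like cells held a small number of Cxcl10 UMIs, 39 in 27 cells (1.54%) of shSdc1 and 22 in 14 cells (1.30%) of shRFP, or 36.3 CPM and 38.9 CPM. On 4 and 1 Cxcl9 UMIs, they had 9.75 Cxcl10 UMIs for each Cxcl9 UMI in shSdc1 and 22.0 in shRFP. These T-like values were above those of the whole monocyte/macrophage-like class in the same library. Within that class, the cluster led by Ifit3 and Rsad2 (cluster 13 below) had 301 Cxcl10 and 28 Cxcl9 UMIs in shSdc1. In shRFP it had 459 and 21. Per 1000 UMIs of Lyz2, a macrophage and monocyte gene, T-like cells had 565 Cxcl10 UMIs in shSdc1 and 175 in shRFP. Monocyte/macrophage-like cells had 47.5 in shSdc1 and 46.8 in shRFP. Of the T-like Cxcl10 UMIs, most were in sub-clusters 0 and 4: 13 and 12 in shSdc1, 11 and 9 in shRFP. Genes leading sub-cluster 4 included Ifit3, Ifit1 and the macrophage genes C1qa, Lyz2 and C1qc. The origin of the T-like Cxcl10 UMIs was not tested. NK-like cells had 12 Cxcl10 UMIs in shSdc1 and 1 in shRFP. B and plasma-like cells had 1 Cxcl10 UMI in 81 shSdc1 cells and 2 in 115 shRFP cells.

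Cxcl16 was higher in shSdc1 monocyte/macrophage-like cells and lower in conventional DC. It had 471 CPM [441 to 502] in shSdc1 and 273 CPM [252 to 294] in shRFP monocyte/macrophage-like cells, from 931 and 663 UMIs, and the ratio was 1.73 [1.56 to 1.91]. It was found in 26.5% of shSdc1 and 17.3% of shRFP cells, or 11.9% of shSdc1 and 6.999% of shRFP cells at 300 UMIs, against 0.171% of shSdc1 and 0.279% of shRFP T-like cells without thinning. Its UMIs were spread over many cells: 453 of 646 positive cells in shSdc1 and 381 of 505 in shRFP had exactly 1, and the 10 highest cells held 5.91% of the UMIs in shSdc1 and 5.73% in shRFP. Of the 3 ligands in this class, 2 were thus past 1.5-fold higher and 0 past 1.5-fold lower. Among all 9221 genes with at least 20 UMIs in this class, 14.5% were past 1.5-fold higher and 8.78% lower, or 23.3% either way.

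The highest Cxcl16 level of all classes was in migratory DC-like cells, the mature DC that travel to lymph nodes, with 800 CPM [643 to 985] in shSdc1 and 870 CPM [692 to 1080] in shRFP. It was found there in 42.1% of shSdc1 and 38.7% of shRFP cells, and the ratio was 0.919 [0.673 to 1.26]. This level stood above the interval of every other class with at least 50 cells in the same library. Conventional DC 1-like cells had 200 CPM in shSdc1 and 350 CPM in shRFP (ratio 0.573 [0.379 to 0.863]), and conventional DC 2-like cells had 153 CPM in shSdc1 and 254 CPM in shRFP (ratio 0.603 [0.388 to 0.917]). Both ratios stayed below 1 under each processing alternative that gave the class. In conventional DC 1-like cells 2 of the 3 ligands were past 1.5-fold higher and 1 lower, where 15.9% of all genes tested there were higher and 12.7% lower, or 28.6% either way. In conventional DC 2-like cells all 3 were lower, where 14.4% of genes were, with the turns of Cxcl9 and Cxcl10 given above.

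**Figure D2:**
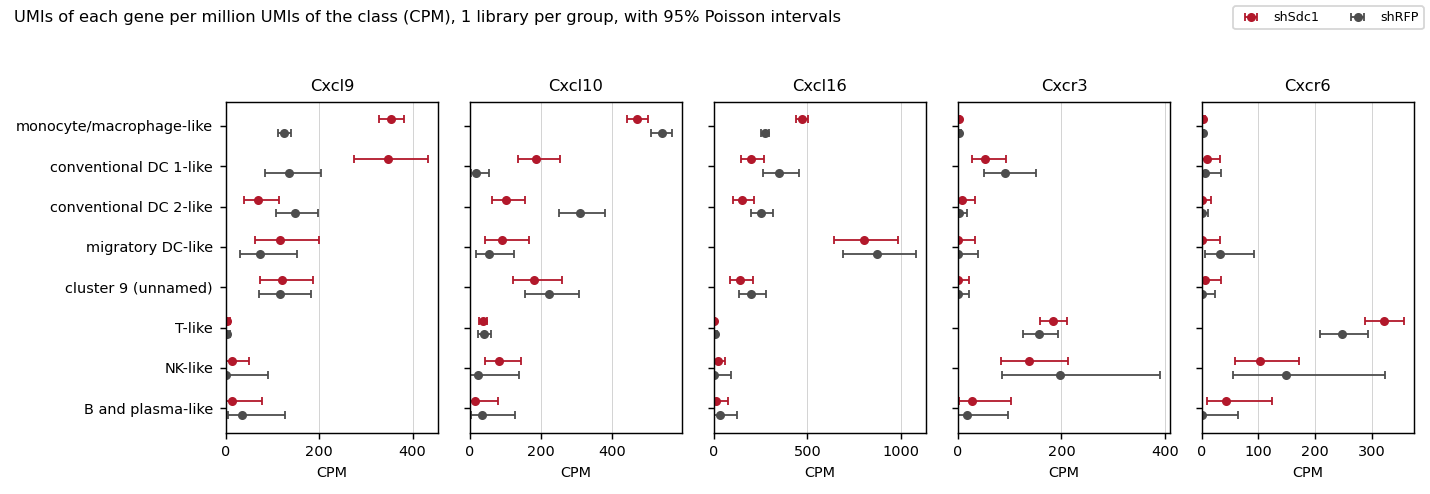
Level of each gene (horizontal axes, CPM, starting at 0) in the 8 classes that had 50 cells or more in each library. Points are the single shSdc1 (red, above) and shRFP (grey, below) libraries with 95% Poisson intervals, and Cxcl16 is highest in migratory DC-like cells at 800 CPM in shSdc1 and 870 CPM in shRFP.

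**Figure D3:**
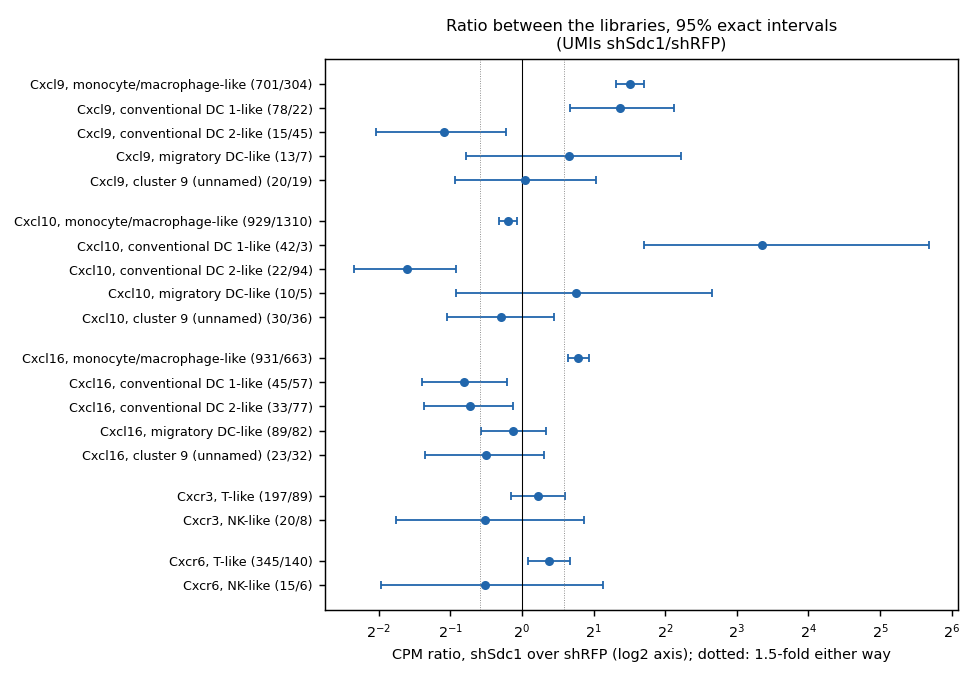
Ratio of CPM, shSdc1 over shRFP (horizontal log2 axis), for the ligands in myeloid classes and the receptors in lymphocytes, with 95% exact intervals and UMIs of shSdc1 and shRFP in the labels. Cxcl9 is at 2.84 and Cxcl10 at 0.872 in the same monocyte/macrophage-like cells, and the widest interval is that of Cxcl10 in conventional DC 1-like cells.

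The monocyte/macrophage-like class was made of 6 clusters, and different clusters held most of it in the 2 libraries. Cluster 0, led by Ms4a7, Ccl8, C1qa and Apoe, genes of complement-producing macrophages, was 51.6% of the class in shSdc1 and 18.0% in shRFP. Cluster 2 (Il1a, Cxcl3, Arg1) was 15.5% in shSdc1 and 29.1% in shRFP, and cluster 5 (Hp, Chil3, Plac8, genes of monocytes) was 5.08% in shSdc1 and 21.8% in shRFP. Cluster 4 was 11.4% and 17.7%. Its leading genes included the heat shock genes Hspb1, Hspa1a and Hspa1b, and Egln3 and Vegfa, which respond to low oxygen. Cluster 7 (Gdf15, Fabp4, Hmox1) was 11.7% and 9.35%, and cluster 13 (Ifit3, Rsad2, Isg15, targets of type I interferon) was 4.79% and 4.04%. Cluster 0 alone held 63.9% of all Cxcl9 UMIs of the shSdc1 library and 27.7% of those of the shRFP library.

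Cxcl9 was at 528 CPM in shSdc1 and 216 CPM in shRFP within cluster 0, a ratio of 2.44 [1.99 to 3.03]. It was found in 9.23% of shSdc1 and 4.79% of shRFP cells of this cluster at 300 UMIs. Clusters 4 and 7 also had ratios with an interval above 1, 3.27 [1.76 to 6.26] and 1.81 [1.18 to 2.81], while the ratios of 1.29, 1.57 and 1.35 in clusters 2, 5 and 13 had intervals that included 1. A single shSdc1 cell held 44.8% of the 29 Cxcl9 UMIs of cluster 4 and 81.2% of the 16 of cluster 5. The higher value of cluster 5 thus rested on its top cell. For cluster 4 the interval takes UMIs as independent, and the ratio without its top cell was not computed. With the 6 clusters weighted alike in both libraries, the class ratio was 2.10, against 2.84 over all cells of the class.

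Cxcl16 behaved otherwise within clusters. It was at 582 CPM in shSdc1 and 484 CPM in shRFP in cluster 0 (ratio 1.20 [1.03 to 1.40]) and at 526 CPM in shSdc1 and 386 CPM in shRFP in cluster 7 (ratio 1.36 [1.08 to 1.72]). Its lowest levels were in cluster 5, at 95.6 CPM in shSdc1 and 86.6 CPM in shRFP. With clusters weighted alike its class ratio was 1.25, against 1.73 over all cells, and so was no longer past 1.5-fold. At 300 UMIs Cxcl16 was found in 14.6% of shSdc1 and 12.97% of shRFP cells of cluster 0.

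Cxcl10 was concentrated in cluster 13, with 3212 CPM in shSdc1 and 4853 CPM in shRFP, a ratio of 0.662 [0.570 to 0.767]. At 300 UMIs it was found in 36.4% of shSdc1 and 51.7% of shRFP cells of that cluster. The cluster was 117 shSdc1 and 118 shRFP cells and held 27.2% of all Cxcl10 UMIs in shSdc1 and 30.7% in shRFP. Cluster 0 went the other way, with 282 CPM in shSdc1 and 158 CPM in shRFP (ratio 1.79 [1.39 to 2.32]), and held 25.7% of Cxcl10 UMIs in shSdc1 and 5.41% in shRFP. At 300 UMIs, however, 3.73% of shSdc1 and 4.99% of shRFP cells of cluster 0 had a Cxcl10 UMI, so that the higher level was not seen in the share of positive cells. Cluster 7 had 403 CPM in shSdc1 and 540 CPM in shRFP (ratio 0.746 [0.592 to 0.936]), and clusters 2 and 4 had ratios of 0.928 and 1.04 with intervals that included 1. Cluster 5 had 494 CPM from 31 UMIs in shSdc1 and 322 CPM from 119 UMIs in shRFP, a ratio of 1.53 [0.998 to 2.29]. Ifnb1, which encodes interferon beta, was higher in shSdc1 in cluster 7 (18 UMIs in shSdc1 and 2 in shRFP), where Cxcl10 was lower.

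**Figure D4:**
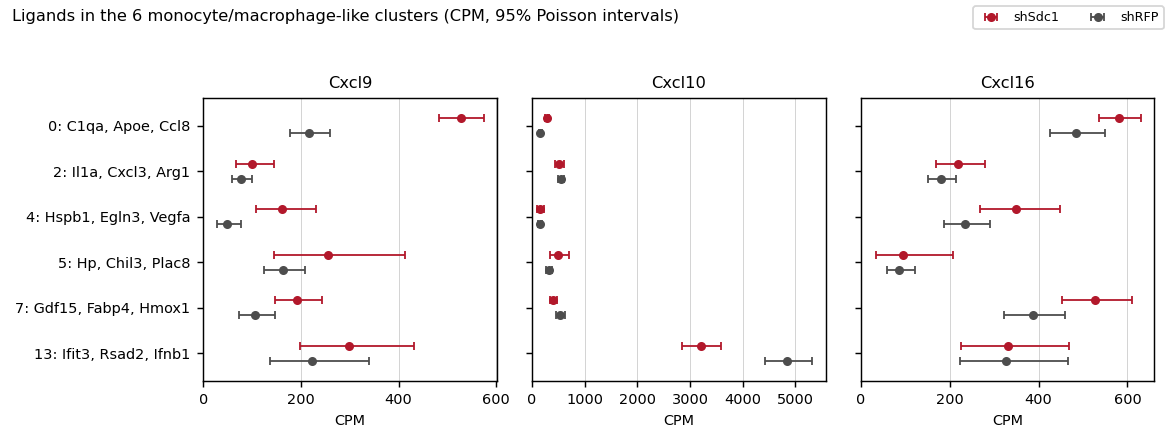
Levels of the 3 ligands (horizontal axes, CPM, starting at 0) in the 6 monocyte/macrophage-like clusters, named by number and 3 leading genes, for shSdc1 (red, above) and shRFP (grey, below) with 95% Poisson intervals. Cxcl9 is highest in cluster 0 of shSdc1 at 528 CPM, and Cxcl10 in cluster 13 at 3212 CPM in shSdc1 and 4853 CPM in shRFP.

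Within monocyte/macrophage-like cells at 300 UMIs, cells with a Cxcl9 UMI had a Cxcl10 UMI more often than the other cells. The share was 16.8% [11.2 to 23.8] with Cxcl9 and 6.83% [5.80 to 7.98] without it in shSdc1, and 16.4% [8.49 to 27.5] with it and 9.49% [8.42 to 10.6] without it in shRFP. Only in shSdc1 were these intervals apart, and the difference between libraries was not tested. A Cxcl16 UMI was found in 12.8% of cells with Cxcl9 and 11.8% of those without it in shSdc1, and in 14.9% and 6.81% in shRFP. For Cxcl10 and Cxcl16 the shares were 14.6% with Cxcl10 and 11.6% without it in shSdc1, and 6.59% and 7.04% in shRFP.

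Cxcr3 was the receptor with the broader spread over lymphocytes. In T-like cells it had 183 CPM [159 to 211] in shSdc1 and 157 CPM [126 to 194] in shRFP, from 197 and 89 UMIs, and the ratio of 1.17 had an interval of 0.903 to 1.51, with 0.846 for cells of at least 500 genes and 0.880 at Leiden resolution 0.5. It was found in 169 of 1750 shSdc1 cells (9.66%) and 77 of 1074 shRFP cells (7.17%), and in 5.83% of shSdc1 and 4.87% of shRFP cells at 300 UMIs, but in 6.46% of shSdc1 and 8.28% of shRFP cells at 500 UMIs. Monocyte/macrophage-like cells, which are not known to carry it, gave a background of 0.164% in shSdc1 and 0.274% in shRFP. In NK-like cells it had 138 CPM from 20 UMIs in shSdc1 and 198 CPM from 8 UMIs in shRFP, a ratio of 0.697 [0.294 to 1.83] that ran from 0.625 to 1.28 over the alternatives. Conventional DC 1-like cells had 53.5 CPM from 12 UMIs in shSdc1 and 92.0 CPM from 15 UMIs in shRFP. A UMI was found in 6.25% of shSdc1 and 8.05% of these shRFP cells, above the monocyte/macrophage-like background but at greater median depths, 1221.5 and 1014 UMIs. At 300 UMIs the shares were 2.33% in shSdc1 and 1.36% in shRFP. The monocyte/macrophage-like shares were then 0.0437% in shSdc1 and 0.212% in shRFP, and the intervals of the 2 classes overlapped in shRFP. Migratory DC-like cells had no Cxcr3 UMI in 152 shSdc1 and 137 shRFP cells, which allows a share of cells with a UMI, not of cells expressing it, of up to 1.97% in shSdc1 and 2.19% in shRFP.

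Cxcr6 was almost confined to T-like cells, which held 93.2% of its UMIs in shSdc1 and 90.3% in shRFP. It had 321 CPM [288 to 357] in shSdc1 and 248 CPM [208 to 292] in shRFP T-like cells, from 345 and 140 UMIs, and the ratio was 1.30 [1.06 to 1.59]. It was found in 258 shSdc1 cells (14.7%) and 115 shRFP cells (10.7%), and in 8.96% of shSdc1 and 6.29% of shRFP cells at 300 UMIs, where the intervals of 7.53% to 10.5% in shSdc1 and 4.75% to 8.15% in shRFP overlapped. At 500 UMIs the shares were 12.7% in shSdc1 and 12.4% in shRFP. The background in monocyte/macrophage-like cells was 0.164% in shSdc1 and 0.171% in shRFP. NK-like cells had 104 CPM from 15 UMIs in shSdc1 and 149 CPM from 6 UMIs in shRFP, a ratio of 0.697 [0.256 to 2.19], or 0.613 to 1.27 over the alternatives. Neither receptor was past 1.5-fold in T-like cells, where 12.7% of all genes tested were past it higher and 7.41% lower, or 20.1% either way. Over T-like and NK-like cells together the ratios were 1.11 [0.871 to 1.43] for Cxcr3 and 1.23 [1.008 to 1.496] for Cxcr6. Over all kept cells the ratios were larger, 1.89 for Cxcr3 and 2.29 for Cxcr6, beside the larger T-like and NK-like share of the shSdc1 library. Cxcl9 was also past 1.5-fold over all kept cells, at 2.0, so that 3 of the 5 genes were higher and 0 lower, where 15.3% of all genes were higher and 5.9% lower. Cxcl10 was at 0.710 and Cxcl16 at 1.18. With TMM scaling these 5 ratios were 1.73 for Cxcr3, 2.09 for Cxcr6, 1.83 for Cxcl9, 0.648 for Cxcl10 and 1.08 for Cxcl16.

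The 2 receptors differed in their T-like sub-clusters. Cxcr6 was highest in CD8-like cells (Prf1, Gzmk, Klrd1), among the sub-clusters with a name, with 545 CPM in shSdc1 and 569 CPM in shRFP, a ratio of 0.958 [0.744 to 1.24]. These cells held 52.7% of all Cxcr6 UMIs in shSdc1 and 59.4% in shRFP, and 30.1% of the shSdc1 and 33.0% of the shRFP cells had a UMI. Regulatory-like cells (Foxp3, Il10, Areg) had 200 CPM in shSdc1 and 98.2 CPM in shRFP, a ratio of 2.04 [1.14 to 3.87] on 58 and 15 UMIs. At 300 UMIs the regulatory-like shares were 4.26% in shSdc1 and 2.08% in shRFP, with overlapping intervals. Naive-like cells (Tcf7, Lef1, Klf2) had 280 CPM in shSdc1 and 168 CPM in shRFP, a ratio of 1.67 [0.914 to 3.05]. Cycling-like cells had 53.6 CPM in shSdc1 and 65.75 CPM in shRFP, and sub-cluster 5, led by Ccl1, Tnfsf11 and Nrgn, had 290 CPM from 16 UMIs in shSdc1 and 110 CPM from 2 UMIs in shRFP. It stayed unnamed, since it scored on CD4 helper markers but had 15 Cd8a and 13 Cd4 UMIs in shSdc1 and 2 Cd8a and 1 Cd4 UMIs in shRFP. Sub-cluster 4, whose leading genes included Ifit3, C1qa and Lyz2, got no name under the naming rules. It had 39 Cxcr6 UMIs (671 CPM) in 132 shSdc1 cells and 3 UMIs (104 CPM) in 50 shRFP cells. The ratio was 6.45 [2.05 to 32.6].

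Cxcr3 was more even among the sub-clusters with a name. Regulatory-like cells had 217 CPM in shSdc1 and 255 CPM in shRFP (ratio 0.850 [0.561 to 1.30]), and CD8-like cells had 184 CPM in shSdc1 and 124 CPM in shRFP (ratio 1.49 [0.893 to 2.60]). Naive-like cells had 235 CPM from 21 UMIs in shSdc1 and 90.9 CPM from 13 UMIs in shRFP, a ratio of 2.59 [1.24 to 5.62]. Cycling-like cells had 98.3 CPM in shSdc1 and 82.2 CPM in shRFP. The highest shSdc1 level was in sub-cluster 4, without a name, with 413 CPM from 24 UMIs, against 243 CPM from 7 UMIs in shRFP. Sub-cluster 5 had 1 UMI in 104 shSdc1 cells (18.2 CPM) and 5 UMIs in 36 shRFP cells (274 CPM). With the sub-clusters weighted alike in both libraries the T-like ratios were 1.21 for Cxcr3 and 1.30 for Cxcr6, close to those over all T-like cells. Regulatory-like cells were 36.3% of T-like cells in shSdc1 and 30.5% in shRFP, CD8-like cells 26.7% and 21.1%, and naive-like cells 13.7% and 35.2%.

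**Figure D5:**
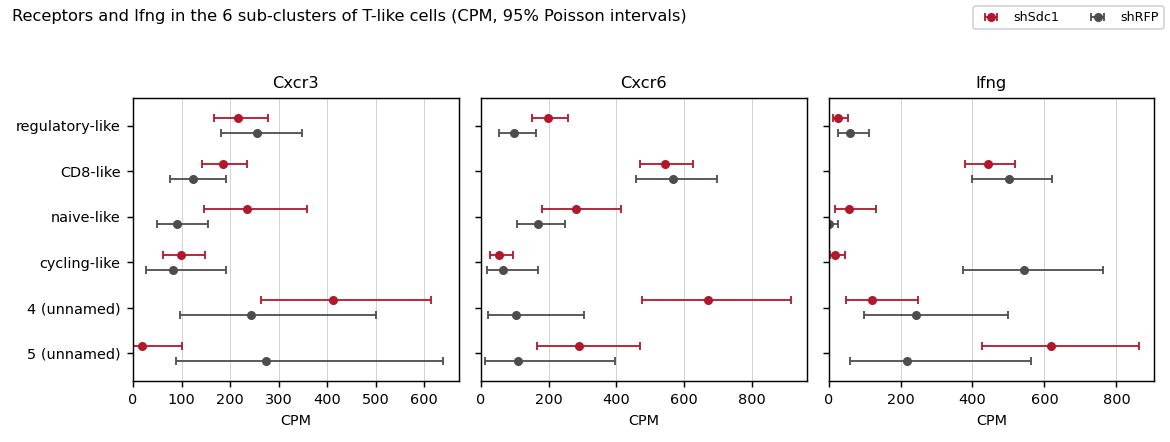
Levels of Cxcr3, Cxcr6 and Ifng (horizontal axes, CPM, starting at 0) in the 6 sub-clusters of T-like cells, for shSdc1 (red, above) and shRFP (grey, below) with 95% Poisson intervals. In CD8-like cells Cxcr6 is at 545 CPM in shSdc1 and 569 CPM in shRFP. In cycling-like cells of shRFP, 30 of the 33 Ifng UMIs came from a single cell.

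At 300 UMIs, cells with a Cxcr6 UMI had a Cxcr3 UMI in 12 of 129 cases (9.30% [4.90 to 15.7]) in shSdc1 and in 1 of 53 (1.89% [0.0478 to 10.1]) in shRFP. T-like cells without Cxcr6 had one in 5.49% of shSdc1 and 5.07% of shRFP cells, with overlapping intervals in both libraries. Each receptor was detected in few cells at this depth, so that rare joint detection does not show that separate cells carry them. Cd8a was found in 15.5% of Cxcr6-positive and 9.61% of Cxcr6-negative T-like cells in shSdc1, and in 18.9% and 9.63% in shRFP, with overlapping intervals. For Cxcr3 these Cd8a shares were 16.7% and 9.74% in shSdc1, and 9.76% and 10.2% in shRFP.

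Other genes of the axis were given from lists. In monocyte/macrophage-like cells, of 3 measured axis partners 1 was higher, Pf4, which encodes the platelet chemokine CXCL4, with 1964 CPM in shSdc1 and 1261 CPM in shRFP (ratio 1.56, under 1.5-fold with TMM scaling). Among all genes tested in this class, 14.5% were past 1.5-fold higher and 8.78% lower. The list's median log2 ratio was 0.30, against 0.08 over all genes. Adam10, the CXCL16 protease, had 114 CPM in shSdc1 and 107 CPM in shRFP (ratio 1.07 [0.887 to 1.28]), and Adam17, a related protease, had 148 CPM in shSdc1 and 120 CPM in shRFP (ratio 1.23 [1.05 to 1.46]). Dpp4, whose protease trims CXCR3 ligands, had 22 UMIs in shSdc1 and 11 in shRFP T-like cells (ratio 1.05). The decoy receptor genes Ackr1 and Ackr2 had 0 UMIs in both libraries, and Ackr3, which binds CXCL11 and CXCL12, had 3 in shSdc1 and 4 in shRFP. In T-like cells 0 of 3 axis partners were past 1.5-fold, where 12.7% of all genes were higher and 7.41% lower. The median was 0.07, against 0.07 over all genes. Cxcl11, the other interferon-induced CXCR3 ligand gene, was a listed axis partner but was not among the genes of the count tables. GENCODE M21 types it as a polymorphic pseudogene.

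Of 17 interferon gamma pathway genes measured in monocyte/macrophage-like cells, 6 were past 1.5-fold higher in shSdc1 and 0 lower, where 14.5% of all genes were higher and 8.78% lower. Their median log2 ratio was 0.41, against 0.08 over all genes. Among these were Iigp1, a GTPase acting against intracellular pathogens (83 UMIs in shSdc1 and 30 in shRFP, ratio 3.403 [2.22 to 5.35]), Nlrc5 and Ciita, activators of MHC class I and II genes (ratios 1.74 and 1.73), and the GTPase genes Gbp4 and Igtp (1.68 and 1.58). With TMM scaling 4 of the 17 were past 1.5-fold. Irf1, an interferon-induced transcription factor, had a ratio of 1.27 [1.06 to 1.52]. By cluster, Irf1 had ratios of 2.05 [1.33 to 3.25] in cluster 0, 2.10 [1.45 to 3.03] in cluster 2, 0.978 in cluster 4, 0.952 in cluster 5, 1.43 in cluster 7 and 0.817 in cluster 13, the last 4 with intervals that included 1.

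Ifng, the gene of the cytokine itself, was found almost only in lymphocytes, with 97.5% of its UMIs in T-like and NK-like cells in shSdc1 and 95.9% in shRFP. In T-like cells it had 202 CPM from 217 UMIs in shSdc1 and 237 CPM from 134 UMIs in shRFP, a ratio of 0.852 [0.684 to 1.07]. Without the cell with most Ifng in each library, an alternative added after seeing the data, the ratio was 1.04. Per library the Ifng level was 60.5 CPM over all shSdc1 cells and 38.2 CPM over all shRFP cells, a ratio of 1.59 [1.29 to 1.96], beside the larger lymphocyte share. CD8-like cells held 65.4% of the Ifng UMIs in shSdc1 (159 of 243) and 55.1% in shRFP (81 of 147), where 33 UMIs were in cycling-like cells and 90.9% of those in a single cell. Tbx21, which encodes the type 1 lymphocyte factor T-bet and is known to drive Cxcr3, had 63.3 CPM from 68 UMIs in shSdc1 and 30.1 CPM from 17 UMIs in shRFP T-like cells, a ratio of 2.11 [1.22 to 3.82]. It was the only 1 of 9 measured type 1 lymphocyte factors past 1.5-fold there, and the list's median was -0.04. In the same cells 2 of 17 interferon gamma pathway genes were higher, Iigp1 (2.11) and Nlrc5 (1.59), and 1, Ifngr2, lower (0.405), with a median of 0.14. Beside these counts, 12.7% of all genes tested in T-like cells were past 1.5-fold higher and 7.41% lower, with a median of 0.07. The counts of both lists were thus near the share over all genes.

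Of 14 type I interferon pathway genes measured in monocyte/macrophage-like cells, 3 were higher, Ifnb1 (1.98), Ifit3 (1.61) and Irf7 (1.53), while 0 were lower, against the same 14.5% and 8.78% of all genes. The median log2 ratio of the list was 0.20. In T-like cells 2 of 13 were higher, Isg15 (1.92) and Oas3 (1.65), and 1 lower, Ifit2 (0.364), with a median of 0.07. Over all genes in T-like cells, 12.7% were higher and 7.41% lower, with a median of 0.07. Of 9 tissue residency genes in T-like cells, 1 was higher, Itga1, an integrin of resident T cells (2.95 on 28 UMIs in shSdc1 and 5 in shRFP). Lower were 3, among them S1pr1 (0.560) and Klf2 (0.308), which mark recirculating T cells, and the median was -0.22. Of 6 other lymphocyte chemokine receptors there, Cx3cr1 was higher (1.63 [0.805 to 3.56]) and Ccr7, the receptor of naive T cells, lower (0.414), with a median of 0.14. In monocyte/macrophage-like cells 4 of 7 residency genes were lower, among them Itga1 (0.347), Prdm1 (0.615) and Cd69 (0.645). Of 5 chemokine receptors there, Ccr7 (0.527 on 6 UMIs in shSdc1 and 14 in shRFP) and Ccr2, the receptor that brings monocytes into tissue (0.555), were lower, and no gene of either list was higher. Their medians were -0.63 and -0.08. Runx3 (0.624) was the only type 1 lymphocyte factor measured in that class.

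Of the 12 dissociation stress genes, 6 were past 1.5-fold lower in monocyte/macrophage-like cells (median log2 ratio -0.65), 8 in T-like cells (-0.81), 11 in conventional DC 1-like cells (-1.32) and 3 in conventional DC 2-like cells (-0.49), where 8.78%, 7.41%, 12.7% and 14.4% of all genes were lower. Of those measured, 6 of 11 were lower in migratory DC-like cells (-0.74) and 4 of 9 in NK-like cells (-0.26), where 14.2% and 14.8% of all genes were lower. None was past 1.5-fold higher in these 6 classes. Melanoma genes in monocyte/macrophage-like cells summed to 215 CPM in shSdc1 and 102 CPM in shRFP, with 7 of 8 detected in each library and Sox10 at 0 in both. T markers there summed to 69.3 CPM in shSdc1 and 58.4 CPM in shRFP. Macrophage markers in T-like cells summed to 264 CPM in shSdc1 and 564 CPM in shRFP, with 11 of 13 detected in each, Mertk and Adgre1 being at 0 in shSdc1 and Mertk and Fcgr1 in shRFP. The part of these in the results above was not tested.

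By their pattern over the 8 classes in both libraries (16 points, Pearson correlation of log2(CPM + 10), among 7527 other genes with at least 100 UMIs), the genes most like Cxcl9 were Gusb (r = 0.934), Aif1, Tns3, Spi1 and Ptov1. Those most like Cxcl16 were Marcks (0.937), Vwa5a, Gusb, Nav1 and Basp1, and those most like Cxcl10 were Phf11d (0.884), Wdfy3, Clec4a1, Scamp1 and Fcgr1. For Cxcr6 they included Sh2d2a (0.952), Gimap7, Pglyrp1 and Abhd8, and for Cxcr3 they were Mllt3 (0.936), Pglyrp1, Dut, Lbr and Itgal. The points share libraries and depths, and the correlations only describe the shared pattern over classes.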

How the data were processed

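Droplet RNA sequencing of live CD45+ tumor cells was analysed from 2 libraries, 1 per group. The deposited files hold unnormalized UMI counts, which per the file headers came from Cell Ranger 6.1.1, on build mm10 per the submitters' processing notes. The annotation release and the use of strand are not given in the sources used here. Barcodes with at least 200 genes and under 10% mitochondrial UMIs were kept. The highest Scrublet scores (scanpy 1.11.5) were removed as doublets at 0.8% per 1000 barcodes, which were 263 shSdc1 and 242 shRFP barcodes, since the automatic threshold marked 0 shSdc1 and 1 shRFP barcodes. Cells of both libraries were scaled to 10000 UMIs, log-transformed and clustered by Leiden (2000 variable genes, 30 components, 15 neighbours, resolution 1) without the 5 genes. Clusters were named from marker lists where the mean log2 marker fold was at least 0.5 with at least 3 markers up at least 2-fold. T-like cells were clustered again, and a CD4 name was dropped where Cd8a UMIs outnumbered Cd4 UMIs, a rule added after seeing the data. Names may differ from the study's own. UMIs were summed by class and given as CPM with exact Poisson intervals, shares with Clopper-Pearson intervals, and ratios with exact conditional binomial intervals, at 95%. No test and no p-value was possible with 1 library per group. Counts of genes used a fold of 1.5 and a minimum of 20 UMIs summed over the libraries, and a count of 0 was set at 3 UMIs there. The ratio and its interval were checked on simulated data. The 5 genes and the 7 lists (axis partners, interferon gamma pathway, type I interferon pathway, type 1 lymphocyte factors, tissue residency, other lymphocyte chemokine receptors, dissociation stress) were chosen with earlier results of these data known. Of 86 listed symbols 83 were among the features. Listed genes were named where past 1.5-fold, with Ifng, Irf1, Tbx21, Adam10, Adam17 and Dpp4 named always; some genes these rules would name are not reported here. The alternatives tried were TMM (edgeR 4.0.16) and median-of-ratios (DESeq2 1.42.0) scaling, other filters, clusterings and class definitions, and leaving out the top cell of each library.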

Additional observations from a re-analysis of the deposited data

Results flagged for a closer look

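The ligands moved in opposite directions between the libraries in different cell populations, each ratio with an interval on its own side of 1. None of these differences between populations was tested, since each group is 1 library. Cxcl9 had a ratio of shSdc1 over shRFP of 2.84 in monocyte/macrophage-like and 2.57 in conventional DC 1-like cells, and of 0.469 in conventional DC 2-like cells. Cxcl10 had a ratio of 10.2 in conventional DC 1-like cells, and of 0.872 in monocyte/macrophage-like and 0.329 in conventional DC 2-like cells. Cxcl16 had a ratio of 1.73 in monocyte/macrophage-like cells, and of 0.573 in conventional DC 1-like and 0.603 in conventional DC 2-like cells. The directions of Cxcl9 and Cxcl10 in conventional DC 2-like cells and of Cxcl10 in conventional DC 1-like cells turned round under some filters or clusterings. Among the monocyte/macrophage-like clusters, Cxcl10 had a ratio of 1.79 in cluster 0, and of 0.746 in cluster 7 and 0.662 in cluster 13.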

How the results depend on the processing

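Of the ratios recomputed under the alternatives, 165 lay within the interval of the reported value, 20 lay outside it and 5 others turned round, which was counted only where the reported ratio was past 1.5-fold. In monocyte/macrophage-like cells the Cxcl9 ratio was 2.10 with clusters weighted alike and 3.31 with at least 500 genes per cell. The Cxcl16 ratio was 1.25 with clusters weighted alike. The Cxcl10 ratio was 0.784 with classes taken from markers in each cell and 0.756 with all listed genes left out of the clustering. The Cxcr3 ratio in T-like cells was 0.846 with at least 500 genes, which left 216 shSdc1 and 85 shRFP cells, and 0.880 at Leiden resolution 0.5, where the NK-like class grew to 1250 shSdc1 and 791 shRFP cells. The 5 that turned round were in conventional DC: Cxcl9 in the DC 2-like class was 1.10 without doublet removal and 1.13 under 5% mitochondrial UMIs, Cxcl10 there was 2.70 under 5% mitochondrial UMIs and 1.35 with the 5 genes kept in the clustering, and Cxcl10 in the DC 1-like class was 0.678 at resolution 0.5. The cause was not tested. Ratios under 1.5-fold, whose reported intervals included 1, also crossed it: Cxcr3 in T-like cells as above, Cxcr3 and Cxcr6 in NK-like cells (1.28 and 1.27 at resolution 0.5, and 1.05 for Cxcr6 under 5% mitochondrial UMIs), Cxcl16 in migratory DC-like cells (1.001 under 5% mitochondrial UMIs) and Ifng in T-like cells (1.04 without the highest cells). No conventional DC 2-like class was named with at least 500 genes, without the listed genes or at resolution 0.5.

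Cxcl9 in monocyte/macrophage-like cells ranged from 2.10 to 3.31 over 12 alternatives, Cxcl10 from 0.756 to 0.943, Cxcl16 from 1.25 to 1.77, and in T-like cells Cxcr6 from 1.13 to 1.55 and Cxcr3 from 0.846 to 1.21. TMM scaling moved the median of all genes by -0.13 on the log2 scale over all kept cells, by 0.29 in B and plasma-like cells and by under 0.1 in the other classes with at least 50 cells.

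Counts of listed genes past 1.5-fold differed by over 1.5 times from those reported in 19 cases and by less in 65. In monocyte/macrophage-like cells, interferon gamma pathway genes numbered 3 higher of 14 with at least 100 UMIs (6 of 17 reported), axis partners 0 higher with TMM scaling and 2 higher and 1 lower with at least 1 UMI in each library (1 and 0), type 1 lymphocyte factors 3 higher and 4 lower of 8 with at least 1 UMI (0 and 1), residency genes 1 higher with at least 1 UMI (0), and other receptors 1 lower with at least 100 UMIs (2). In T-like cells, with at least 100 UMIs, interferon gamma pathway genes numbered 1 higher and 0 lower (2 and 1), type I interferon genes 1 higher and 0 lower (2 and 1), and type 1 lymphocyte factors, residency genes and other receptors 0 higher (1 each). With at least 1 UMI in each library, interferon gamma pathway genes there numbered 2 lower (1), type 1 lymphocyte factors 2 higher (1), and other receptors 2 higher and 3 lower (1 and 1). Of the shares of cells with a UMI at 500 UMIs or without thinning, 19 lay outside the interval at 300 UMIs and 1 within it. No paired analysis was possible because each group is 1 library.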
